A study of Mus musculus with 6 samples.

Results

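The genes of the circadian clock were followed in liver RNA of mice with and without intestinal Mttp, which encodes the transfer protein that loads triglyceride onto chylomicrons. They were taken by symbol from the count table of the series. All 10 were found among its 40481 genes, namely Arntl, Clock, Npas2, Nr1d1, Nr1d2, Dbp, Per1, Per2, Per3 and Cry1. All 10 passed the filter on low counts.

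RNA-Seq had been done on 6 pools of liver RNA, 3 of each genotype, with 3 to 4 mice per pool according to the methods and 12 livers according to the design text. Mice of both groups carried floxed Mttp alleles and a tamoxifen-inducible Cre driven by Villin, a promoter of intestinal epithelium, on a C57BL/6 background. Mttp-IKO mice had been injected with tamoxifen at 50 µg/g on each of 5 days, and control littermates, labelled wild type, with vehicle, so tamoxifen and the deletion cannot be told apart. The male mice, 12 to 16 weeks old, were fed a methionine- and choline-deficient (MCD) diet for 3 weeks, starting 3 weeks after the injections. They were kept in 12 h of light and 12 h of dark, and livers were taken after a fast of 4 h by the design text or 4 to 6 h by the methods. The hour of collection is not given in the sources used here, so genotype and hour of collection cannot be told apart for any gene described. Because RNA was pooled, differences among single mice were averaged out and the replicate spread is smaller than theirs.

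The clock is a loop of transcription that runs in nearly every cell and takes about a day. ARNTL (also called BMAL1) pairs with CLOCK or its relative NPAS2, binds E-box sequences and turns on the Per, Cry, Nr1d1, Nr1d2 and Dbp genes. The PER and CRY proteins then block the pair, while NR1D1 and NR1D2 (REV-ERB alpha and beta) repress Arntl through ROR response elements, so Arntl mRNA peaks when Nr1d1 and Dbp mRNA are low. In liver the loop times the synthesis of bile acids, lipids and enzymes of xenobiotic metabolism, and feeding sets its hour.

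In Mttp-IKO livers the activator Arntl was 4.74-fold higher, the repressor Cry1 2.95-fold higher and Clock 1.62-fold higher than in control livers, and the repressor Nr1d1 was 2.75-fold lower. These 4 of the 10 genes passed edgeR's test at an adjusted p under 0.05, where 694 of 17287 genes tested (4.01%) passed. The 3 genes called higher stand beside 0.920% of all genes, and the 1 called lower beside 3.09%. The genotypes did not overlap for 6 of the 10, with 4 higher and 2 lower, where 31.0% of all genes did not overlap (14.5% higher and 16.5% lower). An unadjusted p under 0.05 was reached by 7 of the 10 and by 23.0% of all genes. The median log2 fold change of the 10 genes was 0.44, and that of all genes 0.0057. In bulk tissue, fewer cells of a type and less RNA per cell cannot be told apart.

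**Figure D1:**
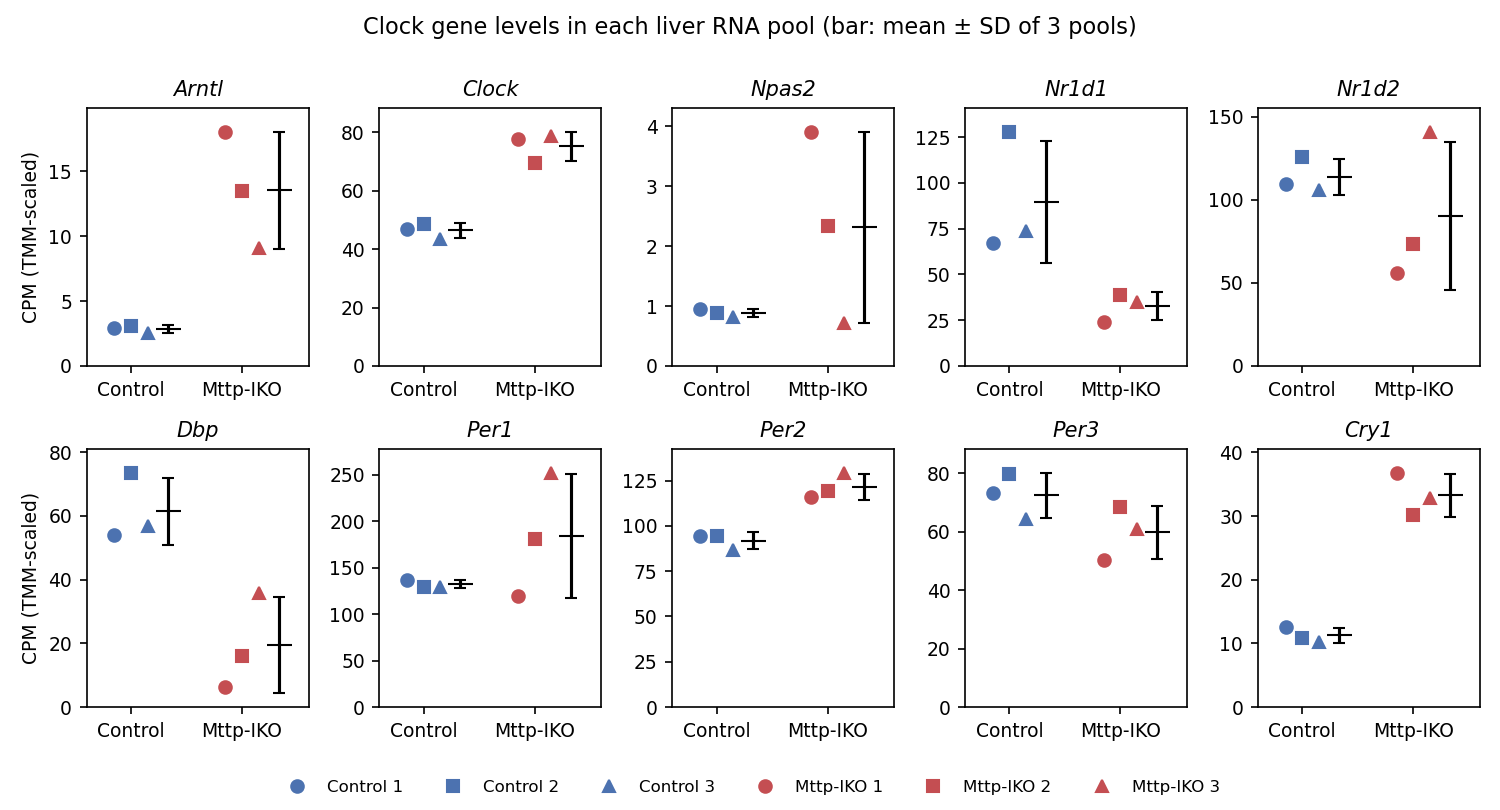
Level of each clock gene in the 6 liver pools, in CPM (reads relative to the scaled library total) after TMM scaling; each point is a pool (circle, square and triangle for pools 1, 2 and 3) and the bars give the mean ± SD of 3 pools. Arntl and Cry1 of all 3 Mttp-IKO pools lie above all control pools, Nr1d1 and Dbp lie below, and Npas2 of Mttp-IKO pool 3 lies at 0.713 CPM, under the lowest control pool.

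**Figure D2:**
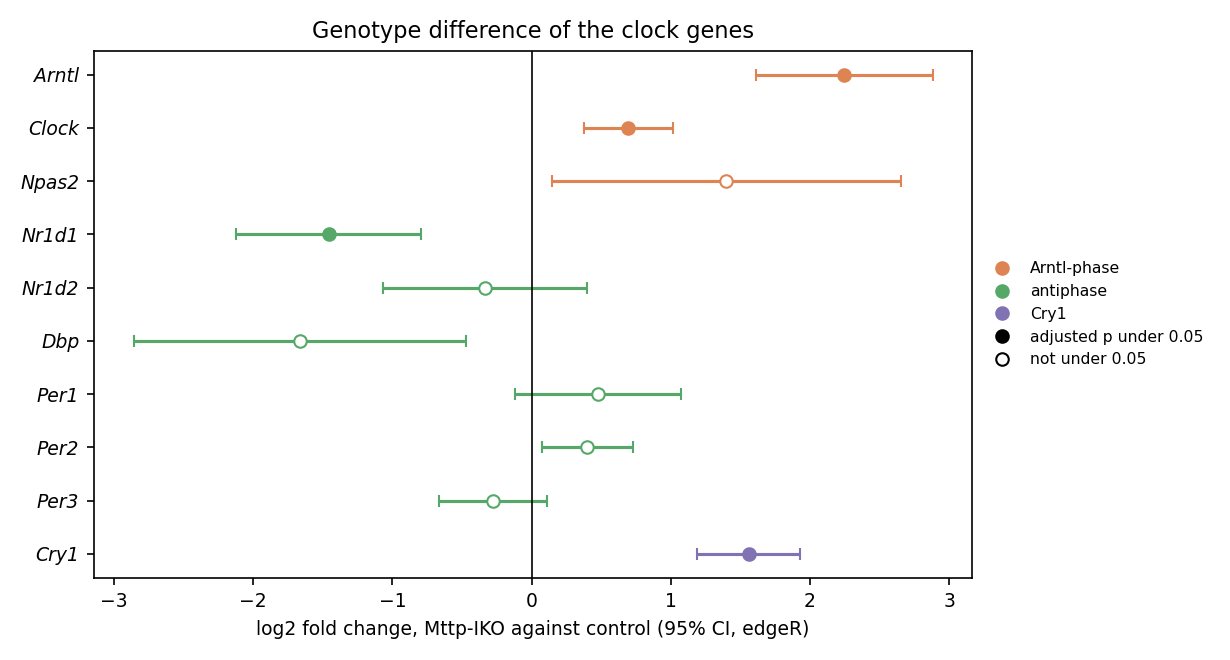
Log2 fold change of each clock gene in Mttp-IKO against control liver with its 95% confidence interval from edgeR (n = 3 pools per genotype). Filled points mark the 4 genes with an adjusted p under 0.05, which are Arntl, Clock, Nr1d1 and Cry1.

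A few pool facts touch these values. The pools held 25271585 to 36238734 reads on genes, and Mttp-IKO pool 3 was the smallest. In that pool small RNAs took 0.634% of reads, against 3.60 to 5.27% in the other 5. Protein-coding genes with an exonic length of 2000 to 4000 nt, the class of Arntl, Nr1d1, Dbp and Cry1, had a median log2 level there of 0.10 below their mean over the 6 pools. Genes over 4000 nt, the class of the other 6, stood 0.13 above it. Shorter genes departed more in that pool, at -0.94 under 1000 nt and -0.40 at 1000 to 2000 nt. In the other 5 pools these shorter classes stood at 0.06 to 0.29. Albumin and the other 6 hepatocyte markers summed to 52803 to 87983 CPM in control and 104780 to 159406 CPM in Mttp-IKO pools, with 6 of 7 higher, 0 called by edgeR and a median log2 fold change of 0.76. Stellate cell markers summed to 597 to 1194 CPM in control and 252 to 302 CPM in Mttp-IKO pools, with 6 of 6 lower and 4 called, and macrophage markers to 470 to 785 and 319 to 501 CPM, with 5 of 6 lower and 0 called. Striated muscle markers reached 523 CPM in control pool 2 and 62.7 CPM in control pool 1 and were under 1 CPM elsewhere. No marker was at 0 in every pool. The part of cell composition in the clock values was not tested. Liver Mttp, which the intestinal Cre should leave whole, stood at 90.4 to 186 CPM in control and 129 to 161 CPM in Mttp-IKO pools, and the deletion in the intestine is not checked by it.

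Arntl (ENSMUSG00000055116, GRCm38 chromosome 7, 113207465 to 113314122, plus strand) encodes the one partner that the loop cannot replace. Its level was 2.93, 3.11 and 2.53 CPM in control pools 1, 2 and 3, from 118, 112 and 81 reads, and 18.1, 13.5 and 9.06 CPM in Mttp-IKO pools 1, 2 and 3, from 560, 394 and 216 reads. The lowest Mttp-IKO pool was well above the highest control pool, and the Mttp-IKO pools differed among themselves more than the control pools did (13.5 ± 4.50 against 2.85 ± 0.294 CPM, SD, n = 3). The log2 fold change was 2.25 (SE 0.276, 95% CI 1.61 to 2.88, edgeR adjusted p = 0.0159), which placed Arntl 39th by p among all genes tested. The adjusted p rose to 0.0730 without control pool 1, 0.0743 without control pool 3 and 0.0914 without Mttp-IKO pool 2.

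Clock (ENSMUSG00000029238, chromosome 5, 76212177 to 76304548, minus strand) encodes the partner of ARNTL, a histone acetyltransferase, and its mRNA is known to cycle weakly in liver. It stood at 47.0, 48.7 and 43.6 CPM in control pools and at 77.6, 69.4 and 78.6 CPM in Mttp-IKO pools. The pools within each genotype lay close together and the genotypes did not overlap. Clock differed by a log2 fold change of 0.69 (SE 0.139, 95% CI 0.38 to 1.01, edgeR adjusted p = 0.0383). The hepatocyte marker median was 0.76, with 0 of 7 called, and the part of cell composition in the Clock value was not tested. The call was lost when reads were scaled by total counts (adjusted p = 0.0845), and without control pool 1, 2 or 3 (0.166, 0.0704 and 0.209) or Mttp-IKO pool 1 or 2 (0.0827 and 0.118), so 5 of the 6 pools were each needed for it. With the replicate number as a block the adjusted p was 0.0721.

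Npas2 (ENSMUSG00000026077, chromosome 1, 39193731 to 39363234, plus strand), which can stand in for CLOCK, was the gene with the fewest reads. Control pools held 38, 32 and 26 reads, or 0.942, 0.887 and 0.812 CPM, and Mttp-IKO pools 121, 68 and 17 reads, or 3.90, 2.33 and 0.713 CPM. Pools 1 and 2 of Mttp-IKO were above all controls and pool 3 was below them. Its log2 fold change of 1.399 (SE 0.544, 95% CI 0.15 to 2.65) did not pass the test (edgeR adjusted p = 0.178). It was 1.82 without Mttp-IKO pool 3, with an adjusted p of 0.0313, and 0.80 without Mttp-IKO pool 1, with an adjusted p of 0.368. The reads of Npas2 per read of Clock, a ratio free of scaling, were 0.0200, 0.0182 and 0.0186 in controls and 0.0503, 0.0336 and 0.00907 in Mttp-IKO pools.

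Promoter sequences were looked at for the letters that the loop's factors are known to bind. Windows from 250 bases before to 50 bases after each RefSeq start (GRCm38.p6) were found for 9 of the 10 genes, 13 windows in all, and Per2 had no entry. The motifs searched on both strands were the E-box CACGTG, the E-prime-box CACGTT, the D-box TTATGTAA or TTACGTAA, which DBP binds, and the ROR element TAGGTCA or TGGGTCA. They occur in 7.15%, 4.68%, 1.06% and 6.45% of all 32851 promoter windows. Those of Arntl, Nr1d1, Cry1 and Per1 that hold a motif are shown because they carry the letters of both limbs of the loop, the ROR element of the Arntl limb and the E-boxes of the repressor limb. The motifs are in capitals, an E-prime-box of the other strand reading as AACGTG, and each window is given 5′ to 3′ on the strand of the gene.
Arntl, second of 2 start sites, chr7:113207261-113207560, plus strand: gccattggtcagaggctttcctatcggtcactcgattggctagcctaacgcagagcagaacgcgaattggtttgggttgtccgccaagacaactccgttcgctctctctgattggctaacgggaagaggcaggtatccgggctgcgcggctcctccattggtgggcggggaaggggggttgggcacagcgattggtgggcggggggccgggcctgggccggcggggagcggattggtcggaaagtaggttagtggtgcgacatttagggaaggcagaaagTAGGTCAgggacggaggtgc
Nr1d1, chr11:98775328-98775627, minus strand: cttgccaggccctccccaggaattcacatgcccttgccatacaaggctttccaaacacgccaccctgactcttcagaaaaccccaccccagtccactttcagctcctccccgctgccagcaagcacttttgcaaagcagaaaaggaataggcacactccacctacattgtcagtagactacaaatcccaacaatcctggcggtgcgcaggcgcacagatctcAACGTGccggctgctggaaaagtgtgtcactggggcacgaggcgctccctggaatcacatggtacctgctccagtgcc
Cry1, chr10:85185005-85185304, minus strand: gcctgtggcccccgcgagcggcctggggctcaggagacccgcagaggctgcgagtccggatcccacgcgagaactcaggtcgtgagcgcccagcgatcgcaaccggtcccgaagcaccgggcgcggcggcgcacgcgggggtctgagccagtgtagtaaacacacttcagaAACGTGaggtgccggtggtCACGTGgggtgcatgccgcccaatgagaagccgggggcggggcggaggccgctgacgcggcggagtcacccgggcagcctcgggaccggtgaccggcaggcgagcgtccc
Per1, first of 2 start sites, chr11:69098699-69098998, plus strand: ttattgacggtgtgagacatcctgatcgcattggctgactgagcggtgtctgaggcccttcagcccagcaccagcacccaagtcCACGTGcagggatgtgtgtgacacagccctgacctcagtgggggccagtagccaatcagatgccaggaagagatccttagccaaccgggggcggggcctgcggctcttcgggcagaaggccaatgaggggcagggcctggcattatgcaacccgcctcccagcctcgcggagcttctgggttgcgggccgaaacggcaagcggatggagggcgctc

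The ROR element of Arntl began 30 bases after the start. Nr1d1 had an E-prime-box beginning 28 bases before the start, Cry1 an E-prime-box at 79 and an E-box at 60 bases before it, and Per1 an E-box at 166 bases before it. Per3 held a D-box at 205 and at 158 bases before its start. The windows of Clock, Npas2, Nr1d2 and Dbp held none of these letters, which says nothing of sites elsewhere in these genes. Among the 4 genes called, motifs were present in the second window of Arntl and in those of Nr1d1 and Cry1, and not in those of Clock. Among those not called, Per1 (first window) and Per3 held motifs, and Npas2, Nr1d2 and Dbp did not. Counted by gene, 8.09%, 5.44%, 1.23% and 7.35% of 27025 genes hold the E-box, E-prime-box, D-box and ROR element. A link between motifs and calls was not tested.

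Of the REV-ERB repressors, Nr1d1 fell and Nr1d2 did not pass the test, and the difference between them was not tested. Nr1d1 (ENSMUSG00000020889, chromosome 11, 98767932 to 98775333, minus strand) encodes the heme-binding repressor of Arntl. It stood at 67.1, 128 and 73.8 CPM in control pools and at 24.2, 38.6 and 35.1 CPM in Mttp-IKO pools. All Mttp-IKO pools were below all controls, and control pool 2 was the highest. Control pool 2 held 523 CPM of muscle markers, and control pool 1, with the lowest control level of Nr1d1, held 62.7 CPM. The part of muscle in the Nr1d1 values was not tested. The log2 fold change was -1.46 (SE 0.289, 95% CI -2.12 to -0.79, edgeR adjusted p = 0.0379). The adjusted p was 0.0537 without Mttp-IKO pool 3, 0.0846 and 0.0974 without control pool 1 or 3, and 0.0886 and 0.123 without Mttp-IKO pool 1 or 2. Only without control pool 2 was the call kept among the 6 pools left out in turn.

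Nr1d1 shares 263 exonic bases with Thra, a thyroid hormone receptor gene on the other strand, and whether counting used the strand is not stated. Thra held 15.9, 18.6 and 18.0 CPM in control and 11.2, 17.2 and 10.2 CPM in Mttp-IKO pools, with a log2 fold change of -0.44 (edgeR adjusted p = 0.278). Reads of Nr1d1 per read of Thra were 4.23, 6.87 and 4.10 in control and 2.16, 2.25 and 3.46 in Mttp-IKO pools, which did not overlap.

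Nr1d2 (ENSMUSG00000021775, chromosome 14, 18204054 to 18239127, minus strand), the second REV-ERB gene, stood at 109, 126 and 106 CPM in control pools and at 56.2, 73.7 and 141 CPM in Mttp-IKO pools. Pools 1 and 2 of Mttp-IKO were below all controls and pool 3 was above them. The log2 fold change was -0.33 (SE 0.318, 95% CI -1.07 to 0.40, edgeR adjusted p = 0.567). It was -0.81 without Mttp-IKO pool 3 (adjusted p = 0.0415), -0.09 without pool 1 (0.869) and -0.21 without pool 2 (0.788). Reads of Nr1d1 per read of Nr1d2 were 0.614, 1.01 and 0.696 in control pools and 0.430, 0.525 and 0.249 in Mttp-IKO pools, so the ratio was lower in all 3, with its lowest value in pool 3.

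Dbp (ENSMUSG00000059824, chromosome 7, 45705088 to 45710155, plus strand) encodes an activator that carries the rhythm to enzymes of liver metabolism through D-boxes. Control pools held 2181, 2652 and 1821 reads, or 54.1, 73.5 and 56.9 CPM, and Mttp-IKO pools 200, 469 and 853 reads, or 6.45, 16.1 and 35.8 CPM. All Mttp-IKO pools were below all controls, and they were spread widely (19.4 ± 14.95 CPM, SD, n = 3), pool 1 lowest and pool 3 highest. The log2 fold change of -1.67, a mean 3.17-fold lower, was the most negative of the 10 genes, and with an SE of 0.518 (95% CI -2.86 to -0.47) it did not pass the test (edgeR adjusted p = 0.112). DESeq2's Wald test, which called 1995 of 17287 genes where edgeR called 694, gave an adjusted p of 0.0104. Without Mttp-IKO pool 3, edgeR gave a log2 fold change of -2.45 with an adjusted p of 0.0250. Dbp shares 491 exonic bases with Sphk2, a sphingosine kinase gene on the other strand, which stood at 50.3 to 63.0 CPM in control and 58.2, 73.3 and 63.3 CPM in Mttp-IKO (log2 fold change 0.16, edgeR adjusted p = 0.603).

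Of the genes of the PER and CRY proteins, Cry1 passed the test and the 3 Per genes did not. Cry1 (ENSMUSG00000020038, chromosome 10, 85131702 to 85185054, minus strand) encodes the cryptochrome that blocks CLOCK and ARNTL on DNA. It stood at 12.6, 10.9 and 10.3 CPM in control pools and at 36.8, 30.1 and 32.8 CPM in Mttp-IKO pools. Both genotypes were tight and far apart. Cry1 had a log2 fold change of 1.56 (SE 0.161, 95% CI 1.19 to 1.93, edgeR adjusted p = 0.0111), which placed Cry1 15th by p among all genes. The call was lost without control pool 3 (adjusted p = 0.0617) and without Mttp-IKO pool 2 (0.0914), and it was made in 14 of the 16 alternatives.

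Per1 (ENSMUSG00000020893, chromosome 11, 69095217 to 69109960, plus strand), which also answers acutely to glucocorticoids, stood at 137, 130 and 130 CPM in control and 119, 181 and 252 CPM in Mttp-IKO pools, where pool 1 was below and pools 2 and 3 above the controls (log2 fold change 0.48, 95% CI -0.12 to 1.08, edgeR adjusted p = 0.313). Without Mttp-IKO pool 3 the log2 fold change of Per1 was 0.19. Per2 (ENSMUSG00000055866, chromosome 1, 91415982 to 91459324, minus strand), which also responds to feeding and body temperature, stood at 94.4, 94.7 and 86.6 CPM in control and 116, 119 and 129 CPM in Mttp-IKO pools. The genotypes did not overlap, and its log2 fold change of 0.40 (95% CI 0.07 to 0.73) did not pass the test (edgeR adjusted p = 0.150). Per3 (ENSMUSG00000028957, chromosome 4, 151003652 to 151044665, minus strand), the family member that the loop can run without, stood at 73.2, 79.9 and 64.6 CPM in control and 50.3, 68.3 and 61.1 CPM in Mttp-IKO pools, which overlapped (log2 fold change -0.28, 95% CI -0.67 to 0.11, edgeR adjusted p = 0.367), and Per3 was at -0.16 without Mttp-IKO pool 1. Per1 and Per2, which usually cycle nearly together, had 1.45, 1.37 and 1.496 reads of Per1 per read of Per2 in control pools and 1.03, 1.51 and 1.95 in Mttp-IKO pools.

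Set against each other pool by pool, the mean of the Arntl-phase genes lay below the mean of the antiphase genes in every pool. The gap was smaller in every Mttp-IKO pool than in any control pool, and by different amounts. Relative to their control means on the log2 scale, the single genes were mixed in Mttp-IKO pool 3. Npas2 was at -0.28 and Clock at 0.76 there, against Per1 at 0.93, Per2 at 0.49 and Nr1d2 at 0.31. The phase contrast was the mean log2 CPM of Arntl, Clock and Npas2 minus that of Nr1d1, Nr1d2, Dbp, Per1, Per2 and Per3. It is given here as a description with no test. Cry1, though turned on by ARNTL and its partner, was put in neither set, because its liver peak lies between theirs. The phase contrast was -4.03, -4.28 and -4.16 in control pools 1, 2 and 3, and -1.27, -2.28 and -3.35 in Mttp-IKO pools 1, 2 and 3. Relative to its control mean it was 0.13, -0.12 and -0.01 in control pools 1, 2 and 3, and 2.89, 1.87 and 0.80 in Mttp-IKO pools 1, 2 and 3. The difference of the means was 1.85, and the SD of the pools was 0.127 in control and 1.04 in Mttp-IKO (n = 3 each). With 1 pool left out it lay between 1.34 and 2.38.

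Pool 1 of Mttp-IKO stood at one end in both sets. The Arntl-phase genes averaged 1.82, 1.38 and 0.71 above their control mean in Mttp-IKO pools 1, 2 and 3, and the antiphase genes -1.07, -0.49 and -0.09 relative to theirs, on the log2 scale. All 6 antiphase genes had their lowest Mttp-IKO level in pool 1, as did 34.6% of all genes tested, and 4 of the 6 (Nr1d2, Dbp, Per1 and Per2) had their highest in pool 3, as did 40.9% of all genes. Arntl and Npas2 had their highest Mttp-IKO level in pool 1 and their lowest in pool 3. Clock did not share this order (0.74, 0.58 and 0.76 above its control mean), nor did Cry1 (1.71, 1.42 and 1.54). Within the antiphase set the genes differed, and in Mttp-IKO pool 1 Dbp stood at -3.23 and Per2 at 0.33 on this scale.

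Ratios of reads within a pool do not depend on how pools are scaled. Arntl reads per Dbp read were 0.0541, 0.0422 and 0.0445 in control pools and 2.80, 0.840 and 0.253 in Mttp-IKO pools, so that Arntl outnumbered Dbp in Mttp-IKO pool 1 and in no other pool. Arntl reads per Nr1d1 read were 0.0436, 0.0243 and 0.0343 in control and 0.747, 0.350 and 0.258 in Mttp-IKO pools. For Per2, the ratio was 0.0310, 0.0328 and 0.0292 against 0.156, 0.113 and 0.0701. Of the 18 pairs of one Arntl-phase and one antiphase gene, 13 had a higher ratio in all Mttp-IKO pools than in any control pool, among them all 6 with Arntl. The other 5 overlapped, and they were Npas2 with Nr1d2, Per1, Per2 and Per3, and Clock with Per1. Clock reads per Arntl read went the other way, from 16.1, 15.7 and 17.2 in control to 4.30, 5.14 and 8.68 in Mttp-IKO pools. The 18 pairs reuse 3 Arntl-phase and 6 antiphase genes, so they are not separate results. No share over pairs of other genes was taken. The rise of Arntl enters all 6 of its pairs. Of their 6 antiphase partners, 4 had a log2 fold change below 0 and 2 above it (Per1 at 0.48 and Per2 at 0.40).

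**Figure D3:**
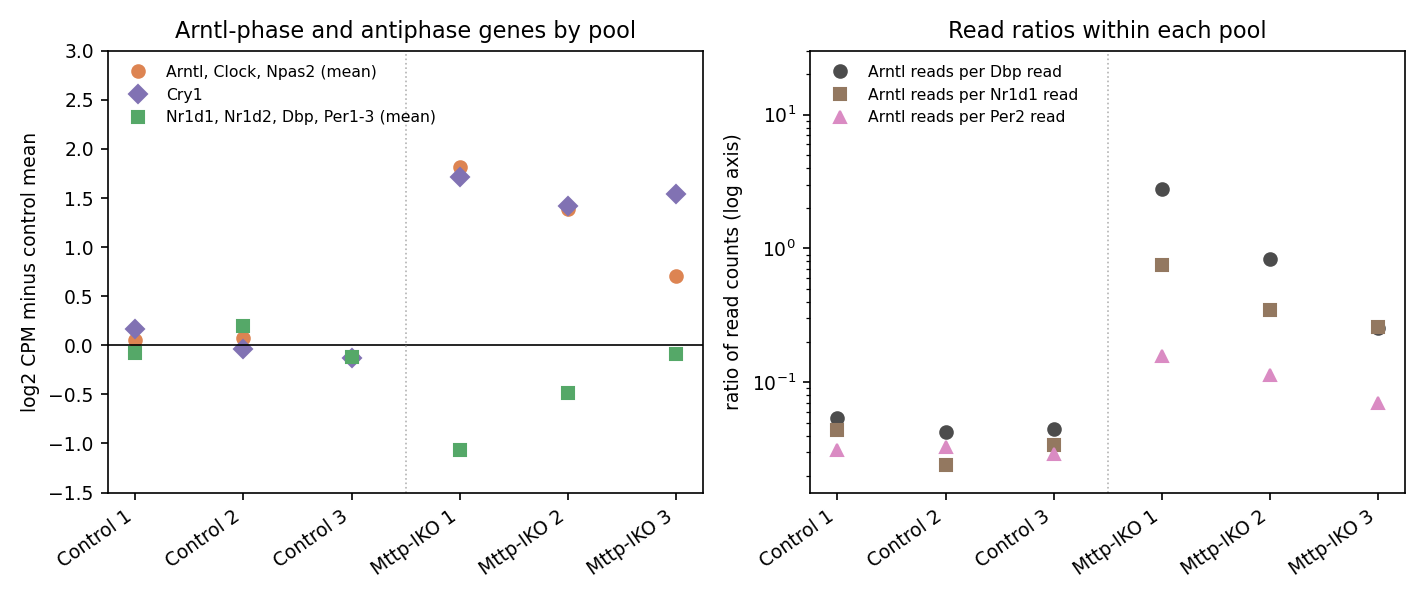
Left, mean log2 CPM relative to the control mean of Arntl, Clock and Npas2 (circles), of the 6 antiphase genes (squares) and of Cry1 (diamonds) in each pool; right, Arntl reads per read of Dbp, Nr1d1 and Per2 in each pool on a log axis. The distance between circles and squares is widest in Mttp-IKO pool 1 (2.89) and narrowest among Mttp-IKO pools in pool 3 (0.80), while Cry1 stays between 1.42 and 1.71.

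Levels per kilobase allow the genes to be compared with each other. In control liver, in RPKM scaled by TMM, Nr1d1 (29.1 ± 10.8), Per1 (23.5 ± 0.764), Nr1d2 (22.8 ± 2.14) and Dbp (20.9 ± 3.57, SD, n = 3) led, with overlapping ranges, followed by Per2 (15.7 ± 0.781), Per3 (7.55 ± 0.801), Clock (6.21 ± 0.347), Cry1 (3.73 ± 0.398), Arntl (0.983 ± 0.101) and Npas2 (0.184 ± 0.0136), whose ranges did not overlap with their neighbours'. In Mttp-IKO liver the order of means was Per1 (32.7 ± 11.8), Per2 (20.7 ± 1.20), Nr1d2 (18.1 ± 8.97), Cry1 (11.0 ± 1.12), Nr1d1 (10.6 ± 2.45), Clock (10.1 ± 0.671), Dbp (6.60 ± 5.08), Per3 (6.23 ± 0.947), Arntl (4.66 ± 1.55) and Npas2 (0.483 ± 0.333). There every neighbour but the last overlapped the next, so only Npas2 stood clear at the bottom. By mean alone, Nr1d1 and Dbp thus stood lower in the order in Mttp-IKO than in control liver. Dbp ranged from 2.19 to 12.2 RPKM over the Mttp-IKO pools, so its place there is not settled.

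Other genes of the clock, listed for their role, were read from the same fit. Of 18 reported, 17 were tested and 1 passed, where 4.01% of all genes passed. Of the 17, 10 were above and 7 below 0, with a median log2 fold change of 0.054. Bhlhe41 (DEC2), a repressor that competes for E-boxes, stood at 18.2, 19.5 and 22.2 CPM in control and 5.06, 5.62 and 10.8 CPM in Mttp-IKO (log2 fold change -1.48, SE 0.295, edgeR adjusted p = 0.0382). The genotypes did not overlap, and the call was lost without control pool 1 or 3 (adjusted p = 0.113 and 0.130) or Mttp-IKO pool 1 or 2 (0.0845 and 0.148). The promoter window of Bhlhe41 held an E-box 153 bases before the start.

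Relatives of these genes, named here after their values were seen, did not pass edgeR's test. Cry2, the second cryptochrome, stood at 54.6, 65.1 and 56.9 CPM in control and 61.8, 65.8 and 117 CPM in Mttp-IKO (log2 fold change 0.47, edgeR adjusted p = 0.311, and 0.12 without Mttp-IKO pool 3), and Cry1 reads per Cry2 read were 0.231, 0.167 and 0.181 against 0.596, 0.457 and 0.281. Tef, a relative of Dbp that binds the same D-box, stood at 157, 197 and 169 CPM in control and 115, 162 and 239 CPM in Mttp-IKO (log2 fold change -0.02, edgeR adjusted p = 0.972), a sign that turned in 3 alternatives. Hlf, the third of that family, stood at 45.0, 70.0 and 56.9 CPM in control and 79.2, 115 and 89.0 CPM in Mttp-IKO. Its log2 fold change was 0.72 (edgeR adjusted p = 0.103, and 0.0327 by DESeq2's Wald test, which called 1995 of 17287 genes). Dbp reads per Hlf read therefore went from 1.20, 1.05 and 0.999 to 0.0814, 0.140 and 0.402. Rora, an activator gene of the loop, and Bhlhe40, the relative of Bhlhe41, reached 217 and 220 CPM in Mttp-IKO pool 3 and 126 CPM at most in any other pool (log2 fold change 0.55 and 0.40, edgeR adjusted p = 0.246 and 0.406). Without that pool these were 0.19 and 0.05.

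Genes known as outputs of the liver clock gave no call. Of 16 tested, 0 passed edgeR's test, where 4.01% of all genes passed. An unadjusted p under 0.05 was reached by 5 (Noct, Wee1, Pnpla2, Por and Lpin1) and by 23.0% of all genes. Of the 16, DESeq2's Wald test called 3 (Noct, Por and Pnpla2), where it called 1995 of all 17287 genes. Limma-voom called 0 of the 16, where it called 428 of all genes. The median log2 fold change of the 16 was -0.0012. Noct, the circadian gene of nocturnin, stood at 145, 137 and 151 CPM in control and 34.2, 46.9 and 106 CPM in Mttp-IKO pools, without overlap (log2 fold change -1.21, SE 0.379, edgeR adjusted p = 0.113). Without Mttp-IKO pool 3 the log2 fold change of Noct was -1.83, with an adjusted p of 0.00910. Wee1, a cell cycle kinase gene, Pnpla2, the adipose triglyceride lipase, and Por, the reductase of cytochromes P450, had log2 fold changes of -0.57, 0.81 and 0.66 (edgeR adjusted p = 0.139, 0.140 and 0.152). Among the 16 genes, 10 had their lowest Mttp-IKO level in pool 1 and 13 their highest in pool 3, against 34.6% and 40.9% of all genes. Cyp7a1, the rate-limiting enzyme of bile acid synthesis and singled out after its values were seen, was one of them, at 39.99, 84.1 and 83.4 CPM in control and 11.5, 35.1 and 85.7 CPM in Mttp-IKO (log2 fold change -0.65, edgeR adjusted p = 0.567).

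**Figure D4:**
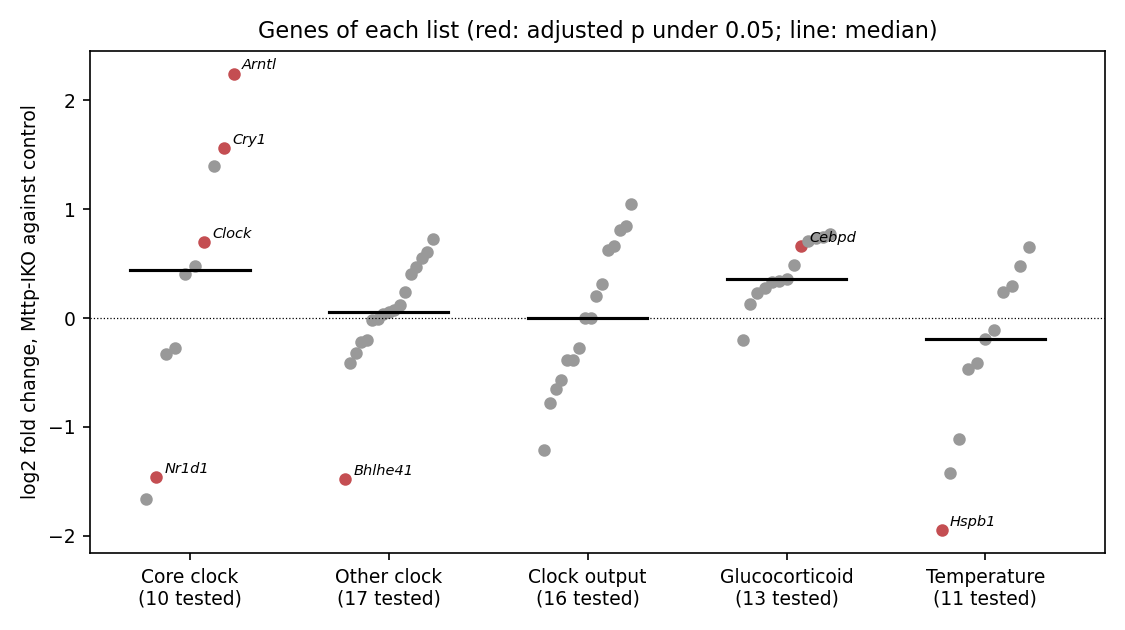
Log2 fold change in Mttp-IKO against control liver of each gene tested in 5 lists: core clock, other clock, clock output, glucocorticoid response and temperature response genes; red points have an edgeR adjusted p under 0.05 and the lines mark the medians. Of the lists, the core clock genes hold 4 calls of 10, the other clock genes 1 of 17, the output genes 0 of 16, and the last 2 lists 1 each. Over all genes tested, 4.01% were called.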

How the data were processed

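Liver RNA of 3 control and 3 Mttp-IKO pools was depleted of ribosomal RNA and sequenced. The authors aligned reads with STAR 2.5.1a to GRCm38 (Ensembl release 76) and counted uniquely aligned reads per gene with featureCounts 1.4.6-p5 of Subread. The deposited values are counts for 41388 genes, with CPM (each count over the total of its pool) and RPKM (CPM per kilobase of exon) that follow from the counts in all 6 files. The deposited table of all pools repeats the counts for 40481 genes with symbols and positions, with 276 repeated lines that were dropped; the columns of sample counts were matched to samples by their names. Whether counting used the strand is not stated.

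Counts were filtered with filterByExpr (minimum count 10, minimum total 15), scaled by TMM (factors 0.898 to 1.11) and tested in R 4.3.3 by the quasi-likelihood fit of edgeR 4.0.16, adjusting p over 17287 genes after Benjamini and Hochberg, with a threshold of 0.05. CPM and RPKM printed are scaled by TMM, and log2 CPM used a prior count of 2. The test was checked on simulated data. A count of 0 allows up to 3 reads, or 0.0743 to 0.126 CPM after TMM scaling, for counting error only. No 2 pools were alike within sampling noise. The labels do not say how pools were made up beyond genotype, so p-values measure the spread between these pools.

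Alternatives were other scalings, DESeq2 1.42.0, limma-voom (limma 3.58.1), other filters, protein-coding genes only, a replicate block, removal of each pool's trend with gene length (loess, span 0.3), and leaving out each pool. Same-numbered pools correlated at 0.00698 to 0.139, not all over 0.1, so the numbers were not taken to pair them. The clock genes and the lists (other clock, clock output, glucocorticoid response, temperature response, cell type markers) were chosen with earlier results of these data known. From each list other than the clock genes, genes with an adjusted p under 0.05 were named, or otherwise the 4 with the smallest p, with the 5 genes most like Arntl and the 5 most like Dbp over the pools, and genes overlapping a clock gene on the other strand. Others were named after their values were seen. One gene of the other clock list is not reported here.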

Additional observations from a re-analysis of the deposited data

How the results depend on the processing

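None of the 10 clock genes turned its direction in the 16 alternatives. Of the 10, the number called stayed at 3 to 5 in the 10 alternatives on all 6 pools and was 0 to 6 when 1 pool was left out (1 without control pool 1, 0 without control pool 3, 2 without Mttp-IKO pool 1, 0 without Mttp-IKO pool 2 and 6 without Mttp-IKO pool 3). Over all genes 694 were called, 1995 with DESeq2's Wald test, 428 with limma-voom, and 0 to 892 with 1 pool left out. At 0, without Mttp-IKO pool 2, edgeR still gave 3221 genes with an unadjusted p under 0.05. Fits on 5 pools have fewer samples. With the replicate number as a block, 3 clock genes (2 higher, 1 lower) and 592 genes in all were called. Scaling by total counts shifted the median log2 fold change of all genes by -0.18, and 3 clock genes were called. Under that scaling the log2 fold changes of Per1, Per2, Per3, Nr1d2 and Cry2 were 0.29, 0.22, -0.46, -0.51 and 0.29, and that of Bhlhe40 was 0.23. The number of other clock genes called was 2 with DESeq2 (Bhlhe41 and Hlf) and 0 to 1 with 1 pool left out. For clock output genes it was 3 with DESeq2 and 0 to 2 with 1 pool left out, for temperature response genes 2 with DESeq2 and 0 to 2. For glucocorticoid response genes it was 0 with total counts, limma-voom, no filter on low counts or the replicate block, 2 with protein-coding genes only, 3 with the length trend removed, 4 with DESeq2, and 0 to 2 with 1 pool left out. Differences near 0 changed sign: Tef ranged from -0.33 to 0.20 and Ciart, a repressor of the loop, from -0.42 to 0.29 with 1 pool left out, Ciart was 0.0021 with protein-coding genes only and 0.13 with the length trend removed, and Sphk2 was -0.026 with total counts. The causes were not tested. The phase contrast, 1.85 as reported, ranged from 1.34 to 2.38 over the alternatives, within 1 pooled SD of the pools (0.742). The SD was 0.127 in control and 1.04 in Mttp-IKO pools, so the range is wider than the control spread. Npas2 rested on 17 to 121 reads a pool.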

Other observations

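Glucocorticoid response genes, which follow the daily rhythm of corticosterone in liver, were read because Per1 and Per2 are among the genes that glucocorticoids induce. Of 13 tested, 12 were above 0, as were 50.5% of all genes, with a median log2 fold change of 0.36, and 1 passed edgeR's test, as did 4.01% of all genes. The hepatocyte markers moved the same way (6 of 7 higher, median 0.76), and their part in this was not tested. Cebpd, a transcription factor gene, stood at 30.9, 28.2 and 33.4 CPM in control and 50.2, 47.5 and 48.2 CPM in Mttp-IKO pools, without overlap (log2 fold change 0.66, SE 0.137, edgeR adjusted p = 0.0425). The call was lost in 9 of 16 alternatives, among them without any pool but Mttp-IKO pool 3, with adjusted p up to 0.180. Fkbp5, a chaperone of the glucocorticoid receptor, stood at 190, 216 and 167 CPM in control and 301, 350 and 304 CPM in Mttp-IKO (log2 fold change 0.74, edgeR adjusted p = 0.0585), and it was named after its values were seen. Of 11 temperature response genes tested, 4 were above and 7 below 0, and 1 passed, where 4.01% of all genes did. Hspb1, a small heat shock protein gene, stood at 44.4, 32.97 and 24.4 CPM in control and 13.3, 6.89 and 6.12 CPM in Mttp-IKO (log2 fold change -1.95, SE 0.343, edgeR adjusted p = 0.0292). That call was lost without control pool 1 (adjusted p = 0.111), control pool 3 (0.0752) or Mttp-IKO pool 2 (0.128).

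The genes whose pattern over the 6 pools was most like a clock gene's were found by the mean absolute difference of log2 CPM, centred on each gene's mean, among 12593 genes. For Arntl they were Cyp2c40 (0.228), Gm13613 (0.229), Lingo4 (0.315), mt-Atp8 (0.318) and Plppr1 (0.334). Cyp2c40, a cytochrome P450 gene of a family with near-identical copies and so uncertain counts, stood at 2.26, 3.41 and 2.84 CPM in control and 17.6, 14.3 and 15.3 CPM in Mttp-IKO pools. For Dbp they were Kif26b (0.224), Gm2788 (0.278), Ces3a (0.279), Noct (0.295) and Car3 (0.315). Ces3a, a liver carboxylesterase gene, stood at 355, 554 and 423 CPM in control and 63.2, 113 and 446 CPM in Mttp-IKO pools, and overlapped between genotypes through pool 3 alone. The points share the 6 libraries, so a like pattern is a description of these pools.

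Among the clock output genes, Elovl3, a fatty acid elongase gene singled out after its values were seen, stood at 3.27, 2.55 and 2.56 CPM in control pools. In Mttp-IKO it stood at 0.129 CPM in pool 1, at 0 in pool 2, where a count of 0 allows 0.103 CPM, and at 4.87 CPM in pool 3. The genotypes overlapped, and Elovl3 did not pass the test (log2 fold change -0.78, 95% CI -3.63 to 2.07, edgeR adjusted p = 0.744).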
